A study of Mus musculus with 6 samples.

Results

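Efferocytosis is the clearance of dying cells by phagocytes, and the genes described here encode 8 proteins that find, bind or hold the dying cell: the receptor tyrosine kinases Axl and Mertk, their vitamin K-dependent ligands Gas6 and Pros1 (protein S), the endocytic receptor Lrp1, the bridging protein Mfge8, the transglutaminase Tgm2 and the phosphatidylserine receptor Timd4 (Tim-4). They were taken by gene symbol from the transcript tables of 6 RNA-seq libraries, 8 genes of 24394 symbols, and 7 of them were among the 10393 genes with a mean level of at least 1 FPKM (fragments for each kilobase of a transcript and each 1000000 fragments of a library). All 6 libraries came from bone marrow derived macrophages (BMMs) of C57BL/6 mice at postnatal day 28, grown from bone marrow cells put through a monocyte isolation kit and kept for 7 days in 50 ng/ml macrophage colony-stimulating factor. The 3 control cultures had no addition, and the 3 stimulated cultures received 5 cartilage fragments per macrophage for 24 hours, the fragments being made from cartilage of the mice that gave the marrow. The sources used here do not say whether the libraries of a group came from separate mice or wells, so the p-values measure the spread between these libraries, which may be technical.

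A dying cell exposes phosphatidylserine on its surface. Timd4 binds that lipid directly, whereas Axl, Mertk and the integrins reach it through soluble bridges: Gas6 joins it to Axl and Mertk, protein S joins it to Mertk, and Mfge8 joins it to the integrins alpha v beta 3 and alpha v beta 5. Lrp1 takes up cells that carry calreticulin, and Tgm2, besides crosslinking proteins, acts with the beta 3 integrin at the phagocytic cup. The comparison of stimulated with control BMMs asks how the transcripts of this machinery stood after a day with cartilage debris.

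On the scale the submitters deposited, FPKM, none of the 7 measured members passed the test (adjusted p under 0.05, limma across all 10393 genes with Benjamini-Hochberg adjustment), against 38 of all genes, or 0.366%. At an unadjusted p under 0.05 (limma) there were 3, Gas6, Mfge8 and Tgm2, where 955 of all 10393 genes were under it. Of the 7, 4 nevertheless had groups that did not overlap: Gas6, Mfge8 and Lrp1 were lower and Tgm2 was higher in each stimulated library than in every control, a separation shown by 15.9% of all genes tested. When the same transcripts were expressed as fragments per 1000000 fragments of the library (scaled fragments, FPM, recovered from the deposited coverage), 3 of the 7 passed the test, against 221 of 10393 genes or 2.13%. Gas6 and Mfge8 fell and Tgm2 rose on that scale, while Mertk, Axl, Pros1 and Lrp1 did not pass. A permutation test of 3 libraries against 3 cannot go below p = 0.10, so the exact test adds nothing to these values.

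**Figure D1:**
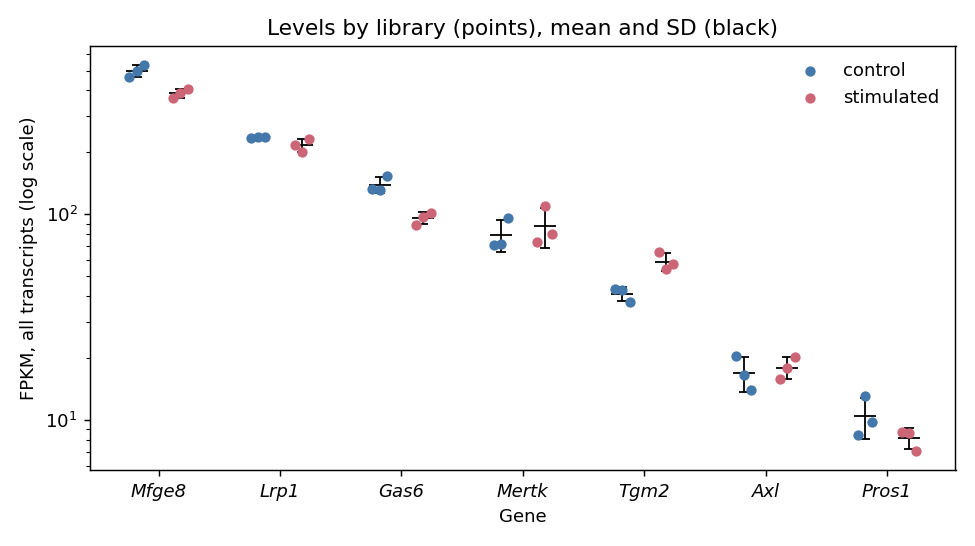
FPKM (all transcripts of a gene summed, log scale) of the 7 measured members in the 3 control (blue) and 3 stimulated (red) libraries, with the mean and SD in black. The red points of Mfge8, Lrp1 and Gas6 lie below the blue ones, those of Tgm2 lie above, and the groups of Mertk, Axl and Pros1 overlap. Timd4 was listed at 0 throughout and is not drawn.

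The levels spanned a wide range. In the control BMMs Mfge8 was highest with a mean of 498 ± 31.9 FPKM (SD, n = 3), above 98.5% of the genes tested, and Lrp1 followed with 237 ± 2.22 FPKM. Gas6 came next with 139 ± 12.6 FPKM, then Mertk with 79.7 ± 14.2, Tgm2 with 41.1 ± 3.22, Axl with 17.0 ± 3.26 and Pros1 with 10.4 ± 2.37 FPKM. No neighbours in that order had overlapping values in the controls. In the stimulated BMMs the order was the same. There the summed FPKM of Gas6 (88.8 to 102) and Mertk (73.1 to 110) overlapped, so they were not ranked on it. The Mertk level adds transcripts that cover only part of the gene, each scaled to its own shorter length. Its FPKM therefore depends on how a library was assembled. Stimulated replicate 2 reached 110 FPKM at 251 FPM, while control 2 had 72.1 FPKM at 240 FPM. Among the receptors of the Tyro3, Axl and Mertk family the transcripts were unequal. On summed FPKM the Mertk level was 3.48 to 6.90 times that of Axl in the controls. It was 4.0 to 6.13 times that of Axl in the stimulated cultures. These ratios share the dependence of Mertk FPKM on the assembly. In FPM, which is not scaled to length, Mertk measured 227 to 265 and Axl 66.5 to 98.7 in the controls. The stimulated cultures had 219 to 251 for Mertk and 73.5 to 98.1 for Axl. Tyro3 had 0 to 2 fragments per library. Of the 2 ligands, Gas6 stood 10.0 to 15.8 times above Pros1 in the controls and 10.1 to 14.4 times above it in the stimulated cultures.

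Gas6 (NM_019521, mm10 chromosome 8, 13465374 to 13494535), the ligand of all 3 receptors of that family, measured 133, 131 and 154 FPKM in controls 1 to 3 and 88.8, 97.3 and 102 FPKM in stimulated cultures 1 to 3. All stimulated values lay under the lowest control. The log2 difference (stimulated minus control, on log2 of FPKM + 0.1) was -0.53 with a standard error of 0.10, a 1.45-fold lower level, and did not pass on FPKM (adjusted p = 0.116, limma). In fragments the libraries held 246, 236 and 272 against 159, 167 and 169, and the fall passed the test on that scale (log2 difference -0.54, 95% interval -0.73 to -0.35, adjusted p = 0.000842, limma). With any 1 of the 6 libraries left out the adjusted p on scaled fragments ranged from 0.00252 to 0.0176.

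Mfge8 (mm10 chromosome 7, 79133768 to 79149060), the milk fat globule protein whose discoidin-like domains bind phosphatidylserine and whose RGD motif binds integrins, measured 467, 496 and 531 FPKM in the controls and 367, 389 and 408 FPKM in the stimulated cultures. Here too the groups did not overlap. The log2 difference was -0.36 with a standard error of 0.07 on FPKM (adjusted p = 0.123, limma) and -0.38, 95% interval -0.50 to -0.25, on scaled fragments, where it passed (adjusted p = 0.000314, limma). It rested on 2146 control and 1577 stimulated fragments, and counting error alone (exact binomial, 95%) would place it between -0.47 and -0.29. The adjusted p on scaled fragments lay between 0.000634 and 0.0116 with any library left out.

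Tgm2 (NM_009373, mm10 chromosome 2, 158116405 to 158146392), the tissue transglutaminase, measured 43.2, 42.8 and 37.4 FPKM in the controls and 65.4, 54.4 and 57.1 FPKM in the stimulated cultures. The lowest stimulated value was above the highest control. Its log2 difference was 0.52 with a standard error of 0.13, a 1.43-fold higher level, with an adjusted p of 0.222 on FPKM and 0.0106 on scaled fragments (limma, 95% interval 0.28 to 0.75). This rise was the least firm of the 3: without stimulated replicate 1, the highest library, the adjusted p was 0.131, and without control replicate 3, the lowest, it was 0.0629.

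Lrp1 (NM_008512, mm10 chromosome 10, 127538158 to 127621148), the large endocytic receptor that receives calreticulin signals and clears proteases, measured 235, 239 and 237 FPKM in the controls and 217, 202 and 233 FPKM in the stimulated cultures. The groups did not overlap, but stimulated replicate 3 was within 2 FPKM of the lowest control. The log2 difference was -0.13 with a standard error of 0.08 on FPKM (adjusted p = 0.667, limma) and -0.15, 95% interval -0.24 to -0.06, on scaled fragments (adjusted p = 0.0916). Without stimulated replicate 3 the latter became -0.21 with an adjusted p of 0.000767, and without any other library it ranged from 0.22 to 0.371. With 7912 control and 6815 stimulated fragments Lrp1 was the most deeply counted member.

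Mertk (NM_008587, mm10 chromosome 2, 128698997 to 128802188), a receptor kinase for both ligands, measured 71.0, 72.1 and 96.1 FPKM in the controls and 73.1, 110 and 80.6 FPKM in the stimulated cultures. The groups overlapped, and the difference changed sign between the scales: log2 0.13 with a standard error of 0.19 on FPKM (adjusted p = 0.856, limma) and -0.08, 95% interval -0.28 to 0.12, on scaled fragments (adjusted p = 0.832). The fragment counts were close throughout, with 176, 182 and 197 in the controls and 168, 181 and 153 in the stimulated cultures.

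Axl (3 reference transcripts, mm10 chromosome 7, 25756500 to 25788733), the Gas6 receptor of the same family, measured 20.4, 16.6 and 13.9 FPKM in the controls and 15.8, 18.0 and 20.1 FPKM in the stimulated cultures. The ranges almost coincided, and the log2 difference of 0.09 had a standard error of 0.20 on FPKM (adjusted p = 0.92, limma). Its 95% interval of -0.37 to 0.56 allowed a difference in either direction. Without control replicate 3 it turned to -0.04, so no direction can be given for Axl.

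Pros1 (NM_011173, mm10 chromosome 16, 62854334 to 62929340), protein S, measured 8.48, 13.1 and 9.75 FPKM in the controls and 8.75, 8.67 and 7.07 FPKM in the stimulated cultures. The groups overlapped. The log2 difference was -0.33 with a standard error of 0.23 (adjusted p = 0.716, limma). With 15 to 30 recovered fragments per library the counting interval was -0.91 to 0.16. A change of the size seen for Gas6 was therefore not detectable at the recovered depth.

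Timd4 (NM_178759, mm10 chromosome 11, 46810799 to 46844333) was listed at 0 in all 6 libraries. A count of 0 allows up to 3 fragments, which is 3.86 to 4.29 FPM in these libraries, counting error only. No difference between the groups could be tested.

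**Figure D2:**
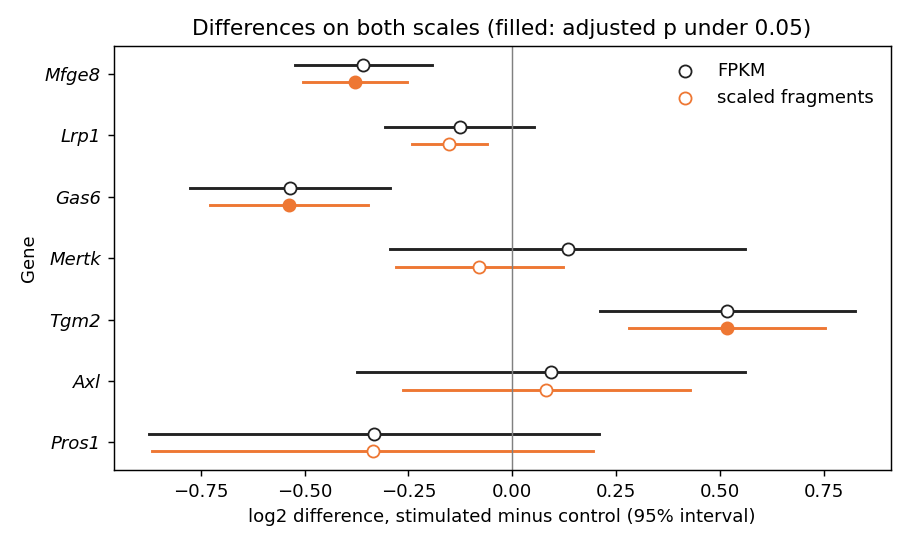
Log2 difference, stimulated minus control, of the 7 measured members with its 95% interval on FPKM (black) and on scaled fragments (orange), where filled points passed an adjusted p of 0.05. The filled points are Mfge8, Gas6 and Tgm2 on scaled fragments, and Mertk lies on opposite sides of 0 on the 2 scales.

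The letters before the start sites of the 2 members that fell together on scaled fragments are given here, beside those of the member listed at 0. These are the 250 bases upstream of the RefSeq gene start (GRCm38.p6, gene strand), with capitals marking matches to the 6 motifs searched on both strands, which were TATAAA for the box of that name, GGGCGG for the box bound by Sp1, CACGTG for the site of basic helix-loop-helix proteins, TGANTCA for the site of Jun and Fos, AGGTCA for the half-site of nuclear receptors and the spaced motif TTCNNNGAA for the proteins of the Stat family. Gas6 lies on the minus strand at chr8:13494536-13494785, Mfge8 on the minus strand at chr7:79149061-79149310 and Timd4 on the plus strand at chr11:46810549-46810798.
Gas6: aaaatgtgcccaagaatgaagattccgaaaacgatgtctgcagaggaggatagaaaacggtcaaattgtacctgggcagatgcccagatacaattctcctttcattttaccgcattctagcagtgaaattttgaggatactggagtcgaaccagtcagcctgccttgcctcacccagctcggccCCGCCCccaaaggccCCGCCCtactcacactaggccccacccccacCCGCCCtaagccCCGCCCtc
Mfge8: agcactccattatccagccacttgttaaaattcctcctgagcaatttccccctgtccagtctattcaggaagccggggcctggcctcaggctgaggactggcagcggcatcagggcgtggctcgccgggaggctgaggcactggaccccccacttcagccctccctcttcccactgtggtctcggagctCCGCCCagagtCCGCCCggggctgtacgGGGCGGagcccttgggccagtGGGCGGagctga
Timd4: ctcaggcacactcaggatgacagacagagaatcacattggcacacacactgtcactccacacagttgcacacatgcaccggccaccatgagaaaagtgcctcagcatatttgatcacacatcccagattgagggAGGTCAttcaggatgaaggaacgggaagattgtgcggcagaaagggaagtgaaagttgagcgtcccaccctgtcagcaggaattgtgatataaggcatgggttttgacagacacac
In Gas6 all capitals mark GGGCGG on one strand or the other, and these matches begin 66, 51, 20 and 8 bases before the start, and in Mfge8 they begin 61, 50, 33 and 12 bases before it. The capitals of Timd4 mark a half-site. GGGCGG was present in 6 of the 7 members with a promoter entry, including Mertk, Axl, Pros1 and Lrp1, and in 32.7% of all 32851 promoters, so it does not separate the members that fell from the others. No member had a TATAAA (12.4% of all promoters), a CACGTG (6.02%) or a TGANTCA match (6.75%), AGGTCA was found in Timd4 alone (14.02%) and TTCNNNGAA in Pros1 and Lrp1 (7.02%). A match is a description of letters only. Tgm2 was not matched to a promoter entry.

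Several members are made as more than 1 transcript, and the lines of the files bear on how far these could be told apart. Mfge8 has a long form, NM_008594 of 2126 bases, and a short form, NM_001045489 of 2015 bases, which lacks exon 4 of 10, a coding exon of 111 bases at chr7:79143278-79143388 on the minus strand that encodes the proline- and threonine-rich stretch of the long form. Axl has NM_009465 of 5084 bases and NM_001190974 of 5057 bases, which lacks exon 10 of 20, a coding exon of 27 bases at chr7:25773099-25773125 on the minus strand. Both exons are shown because each is the one by which the 2 transcripts of its pair differ in length (GENCODE M21, gene strand, all lower case).
Mfge8 exon 4: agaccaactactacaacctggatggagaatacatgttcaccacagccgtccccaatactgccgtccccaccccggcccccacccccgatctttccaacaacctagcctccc
Axl exon 10: ggcaaggacagccactccaccatctgg
The short form of Mfge8 took 13.1%, 25.8% and 14.96% of the gene's FPKM in the controls and 33.9%, 15.03% and 18.9% in the stimulated cultures. These ranges overlap, and the long form was the larger in every library. For Axl the split was not stable between replicates: NM_009465 held 86.8% and 84.2% in controls 1 and 2 but was listed at 0 in control 3 and in stimulated replicate 1, where NM_001190974 held 73.6% and 31.9%. The third transcript, NM_001190975 of 4793 bases, held the other 68.1% in stimulated replicate 1, 13.2% to 26.4% in the controls, 19.8% in stimulated replicate 2 and 0% in stimulated replicate 3. With 49 to 77 Axl fragments per library over transcripts of this length, few fragments can fall on a 27-base exon.

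Beside the reference transcripts, each file holds transcripts that Cufflinks assembled from that library's own reads, and for 3 members these carried part of the signal. Mertk was the extreme case. Its reference transcript was listed at 0 in controls 1 and 2 and at 25.4 FPKM in control 3, against 22.8, 21.3 and 45.8 FPKM in the stimulated cultures, while assembled transcripts of the same locus held 100%, 100% and 68.0% of its fragments in the controls and 65.9%, 71.6% and 30.1% in the stimulated cultures. Read from the reference line alone, Mertk would appear as a log2 difference of 5.48 (adjusted p = 0.777, limma), which the total over all transcripts did not show. For Lrp1 an assembled transcript that begins in intron 6 of the 89-exon gene took 53.2% of the fragments in stimulated replicate 1 and left 96.7 FPKM on the reference line. For Mfge8 one that begins in intron 1 took 21.3% in stimulated replicate 2 and left 299 FPKM. All levels above therefore sum the reference and assembled transcripts of a gene.

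**Figure D3:**
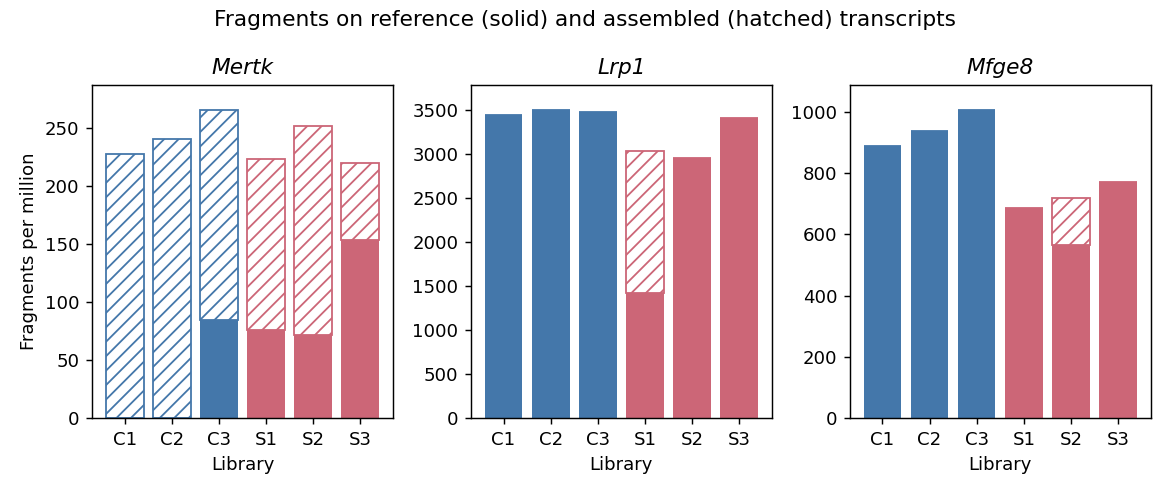
Fragments per 1000000 (FPM) on the reference transcripts (solid) and on transcripts assembled at the same locus (hatched) for Mertk, Lrp1 and Mfge8 in controls 1 to 3 (C1 to C3, blue) and stimulated cultures 1 to 3 (S1 to S3, red). Mertk is entirely hatched in C1 and C2, Lrp1 is hatched by 53.2% in S1 and Mfge8 by 21.3% in S2, while the totals vary less.

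The assembled Mertk transcripts shared a feature. In every library at least 1 of them began near the gene's first exon and ended inside intron 9 of the 19-exon gene, 7 such transcripts in all, between positions 128771642 and 128772845 of chromosome 2. That is 142 to 1345 bases beyond the end of exon 9, in an intron of 4785 bases, and the span covers 48.1% of the coding bases of the full transcript. They took 29.5%, 14.1% and 27.6% of the Mertk fragments in the controls and 15.8%, 36.9% and 30.1% in the stimulated cultures, which overlap. In 4 libraries, controls 1 and 2 and stimulated replicates 1 and 3, a separate single-exon piece of 14.6 to 21.5 fragments lay a little farther into intron 9 under no gene symbol. Adding it gave 246, 262 and 265 FPM in the controls and 243, 251 and 250 in the stimulated cultures. GENCODE M21 lists a full-length transcript and one that begins near exon 9 and runs to the end of the gene, and neither of these ends in intron 9. Exon 9, the last reference exon inside the short transcripts, lies at chr2:128771347-128771500 on the plus strand, and its 154 coding bases are these.
Mertk exon 9: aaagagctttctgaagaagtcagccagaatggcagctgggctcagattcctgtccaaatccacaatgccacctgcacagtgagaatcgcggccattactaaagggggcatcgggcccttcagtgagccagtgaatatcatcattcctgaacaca
What produced the ends in the intron was not tested, and the assembled lines carry no strand.

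**Figure D4:**
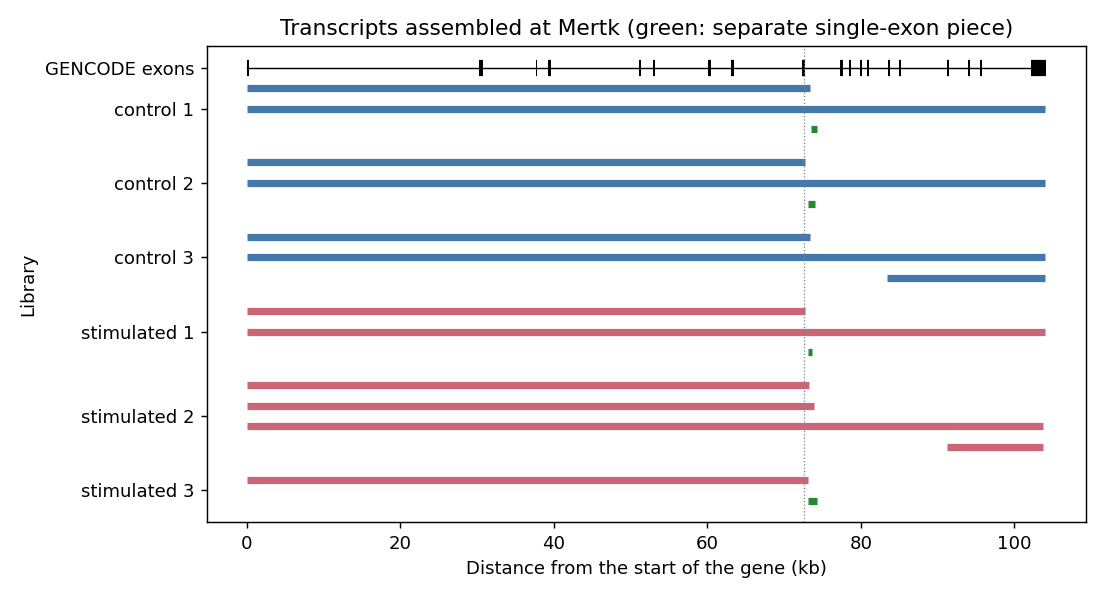
Span of each transcript assembled at Mertk in each library (controls blue, stimulated red), as distance in kb from the start of the gene, under the GENCODE exons (black). In every library a transcript ends just past exon 9 (dotted line), and the green marks in 4 libraries are separate single-exon pieces in the same intron.

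The cell make-up of the cultures was checked with marker lists. Of 12 chondrocyte markers in the files none reached the level for testing: their sum was 2.4 to 5.2 FPKM in the controls and 1.4 to 3.4 in the stimulated cultures, Col2a1 stayed at or under 1.22 FPKM, Acan at or under 0.364, Comp, the highest, at or under 1.81, and 6 of the 12, Matn1, Matn3, Col9a1, Hapln1, Prg4 and Lect1, were listed at 0. All 7 lymphocyte markers were listed at 0, and of the 6 erythroid and endothelial markers 4 were. Of 7 macrophage markers, 6 had means of at least 59.2 FPKM in both groups, and Fcgr1 was lower at 5.13 to 10.9 FPKM in the controls and 9.98 to 12.7 in the stimulated cultures. Csf1r, the receptor for the growth factor of the culture, measured 569 to 639 FPKM in the controls and 565 to 670 in the stimulated cultures. Adgre1 (F4/80) rose (log2 difference 0.59, adjusted p = 0.00965, limma), although on FPKM it missed without stimulated replicate 1 (0.0827) and without stimulated replicate 2 (0.057). Itgam measured 346 to 362 against 404 to 437 FPKM. It rose on scaled fragments (log2 difference 0.26, adjusted p = 0.000404, limma) but did not pass on FPKM (0.182). The other macrophage markers overlapped between the groups.

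Of the stromal markers, the collagens Col1a1 and Col1a2 were lower in the stimulated cultures, as Gas6 and Mfge8 were, and the others overlapped between the groups. Col1a1 measured 87.4, 75.2 and 74.4 FPKM in the controls against 50.7, 43.6 and 49.2 FPKM in the stimulated cultures, a log2 difference of -0.72 that passed on scaled fragments (adjusted p = 2.1e-05, limma) but not on FPKM (adjusted p = 0.0849). Col1a2 measured 71.8 to 86.4 against 56.4 to 62.6 FPKM (log2 difference -0.41, adjusted p = 0.00665 on scaled fragments and 0.29 on FPKM). The Col1a2 call on scaled fragments was lost without control replicate 3 (0.0681), without stimulated replicate 1 (0.0628) and without stimulated replicate 2 (0.0664), and that of Col1a1 was kept whichever library was left out (at most 0.0013). The 8 stromal markers summed to 158 to 174 FPKM in the controls and 108 to 125 in the stimulated cultures, and 2 of the 5 tested were lower on scaled fragments. The other 3 tested were Col3a1 (1.5 to 4.06 against 1.57 to 1.89 FPKM), Cdh11 (2.33 to 5.19 against 2.01 to 5.40 FPKM) and Dcn, which had the opposite sign (1.69 to 3.42 against 1.76 to 4.55 FPKM, log2 difference 0.28, adjusted p = 0.893). Pdgfra stayed at or under 0.455 FPKM, Lum at or under 0.726 and Pdgfrb at or under 1.28. Per the methods the marrow cells went through a monocyte isolation kit before culture, a step meant to leave other cells behind. The part of the 2 collagens, or of cells that make them, in the values of Gas6 and Mfge8 was not tested. In bulk RNA, fewer cells of a type and less RNA per cell cannot be told apart. Neutrophil genes S100a8 (250 to 382 against 333 to 454 FPKM) and S100a9 (429 to 469 against 329 to 502) overlapped between the groups, Mpo and Elane stayed at or under 1.88 FPKM, and of 5 tested neutrophil markers none passed on either scale (0 at an unadjusted p under 0.05, limma). Of the dendritic cell markers Flt3 was listed at 0 and Itgax alone was tested (71.9 to 89.5 against 67.2 to 77.4 FPKM, adjusted p = 0.779).

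**Figure D5:**
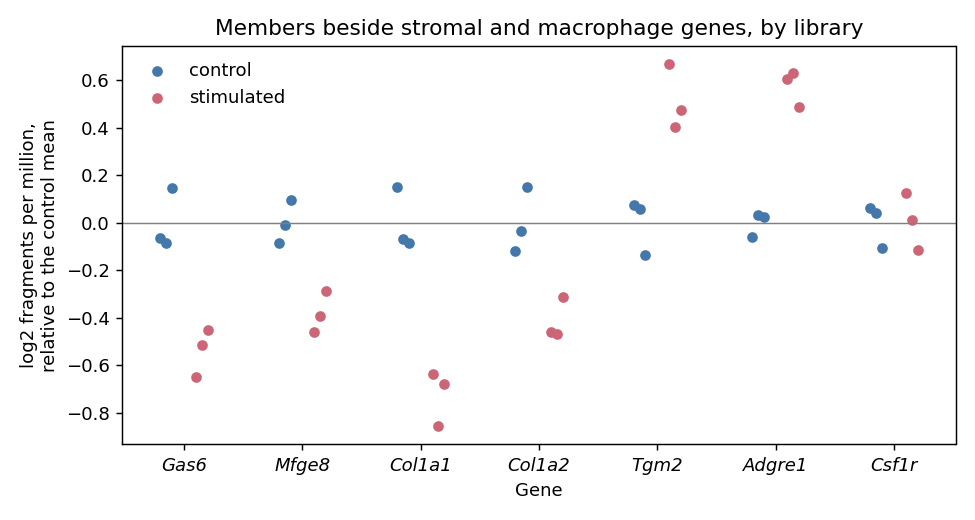
Log2 FPM of Gas6, Mfge8 and Tgm2 beside the stromal collagens Col1a1 and Col1a2 and the macrophage genes Adgre1 and Csf1r, each relative to its control mean, by library. The other stromal markers, which overlapped between the groups, are not drawn. The stimulated points (red) of Gas6, Mfge8, Col1a1 and Col1a2 lie below all control points (blue), those of Tgm2 and Adgre1 above, and those of Csf1r overlap the control points, 1 above, 1 among and 1 below them.

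The wider pathway was described with 10 lists. These lists were chosen with earlier results of these data known, so their counts cannot show an excess over all genes. Of 108 genes tested in them, 5 rose and 1 fell on FPKM, 6 of 108 where 0.366% of all genes passed, and 7 rose and 3 fell on scaled fragments, where 2.13% passed. The median log2 difference over the 108 was -0.0075 on FPKM, beside 0.0037 over all genes. The count on FPKM leaned on single libraries: 3 of the genes passed without control replicate 1, 1 without stimulated replicate 2 and 0 without stimulated replicate 1, while on scaled fragments 8 to 12 passed with any library left out. Stimulated replicate 1 bore most on single calls: without it Lgals3 (adjusted p = 0.0644), C3 (0.14), Pilra (0.0586) and Hp (0.0539) missed the threshold on FPKM, as did Lgals3 (0.0549), C3 (0.107) and Pilra (0.0512) without stimulated replicate 2 and C3 (0.0622) without control replicate 1. On scaled fragments these 4 passed whichever library was left out, with adjusted p of at most 0.00153 (limma).

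Among 14 tested receptors for dying cells other than the members, Cd14, which binds lipopolysaccharide and dying cells, was the 1 that passed on FPKM. It rose from 113, 123 and 118 FPKM to 198, 184 and 168 (log2 difference 0.63, adjusted p = 0.0388, limma); its adjusted p was 0.057 to 0.202 on FPKM with any library left out, and at most 0.00784 on scaled fragments. Cd300lb, an activating receptor for phosphatidylserine, measured 187 to 202 FPKM in the controls and 140 to 152 in the stimulated cultures (log2 difference -0.39, adjusted p = 0.123) and fell on scaled fragments (adjusted p = 0.00119). Scarf1, a receptor for complement C1q, measured 13.1 to 14.5 against 19.97 to 25.6 FPKM, and the scavenger receptor Msr1 measured 76.7 to 97.4 against 103.5 to 126 FPKM, without passing on either scale.

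The genes listed as other bridging proteins and eat-me signals moved in both directions. Lgals3 (galectin-3), itself a ligand of Mertk, fell from 2272, 2328 and 2365 FPKM to 1851, 1748 and 1826 (log2 difference -0.36, adjusted p = 0.0104, limma). Complement C3, whose fragments coat dying cells, rose from 40.3, 41.95 and 31.1 FPKM to 102, 105 and 80.2 (log2 difference 1.34, adjusted p = 0.0193). On scaled fragments C1qa, a chain of C1q, rose as well (log2 difference 0.64, adjusted p = 0.0196), but the call was lost with stimulated replicate 1 left out (0.176), with stimulated replicate 2 left out (0.0815) and with control replicate 2 left out (0.146). Annexin A5 (259 to 294 against 301 to 334 FPKM) and Cd93 (104 to 111 against 83.5 to 103 FPKM) did not overlap between the groups and passed on neither scale, although Cd93 passed on scaled fragments without stimulated replicate 1 (adjusted p = 0.0327, limma). Of 10 genes tested in this list, 1 rose and 1 fell on FPKM, with a median of 0.14.

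Of 6 receptors and ligands that restrain uptake, Pilra, an inhibitory immunoglobulin-like receptor, rose from 4.91, 5.61 and 4.28 FPKM to 29.6, 21.2 and 19.4 (log2 difference 2.21, adjusted p = 0.00965, limma). Lilrb4a, uncertain because reads may be shared with a near-identical copy, measured 794 to 1111 against 1268 to 1801 FPKM, and Sirpa, the receptor for Cd47, measured 527 to 554 against 564 to 567 FPKM; neither passed. The enzymes that shed Mertk, Axl and Lrp1 from the cell surface, with the Lrp1 chaperone, had 1 of 8 pass. This was Mmp14, a membrane metalloproteinase, at 60.3, 67.1 and 74.5 FPKM against 162, 141 and 119 (log2 difference 1.06, adjusted p = 0.0277), but on scaled fragments it did not pass (adjusted p = 0.325) and on its reference transcripts alone the sign turned to -2.80 (adjusted p = 0.831). On FPKM it also missed without control replicate 1 (0.103), control replicate 2 (0.104), and the first (0.137) and second (0.125) stimulated replicates. Adam17, a sheddase of Mertk and Axl, measured 62.7, 60.4 and 59.5 FPKM against 89.4, 74.4 and 82.0, without overlap; it rose on scaled fragments (log2 difference 0.42, adjusted p = 0.00569) but not on FPKM (0.242), nor on scaled fragments without stimulated replicate 1 (0.0892).

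In the list drawn up for the Lrp1 family and its ligands, 1 of 12 passed. Haptoglobin (Hp), the plasma protein that binds free haemoglobin, rose from 27.4, 28.2 and 15.5 FPKM to 162, 172 and 122 (log2 difference 2.71, adjusted p = 0.00411, limma). Whether Hp binds Lrp1 was not examined, so its rise is not given as that of an Lrp1 ligand. Among 18 engulfment signalling genes none passed on either scale (limma). At an unadjusted p under 0.05 there were 1 on FPKM and 4 on scaled fragments, beside 955 and 1173 of all 10393 genes. The 3 with the largest log2 differences among those whose groups did not overlap were Src, Dock1 and Rhog. Src measured 6.20 to 8.16 against 8.79 to 11.0 FPKM, Dock1 7.87 to 9.05 against 9.84 to 13.5 and Rhog 274 to 300 against 326 to 375. Of 17 genes of LC3-associated phagocytosis and corpse digestion none passed on FPKM, and 4 were at an unadjusted p under 0.05 (limma). Cybb, the catalytic subunit of the phagocyte oxidase, measured 434 to 482 against 511 to 583 FPKM and rose on scaled fragments (log2 difference 0.28, adjusted p = 0.00624), whereas Uvrag (31.9 to 40.6 against 25.0 to 30.7), Pik3c3 (11.3 to 15.7 against 9.48 to 11.1) and Becn1 (52.3 to 61.2 against 41.9 to 52.2), parts of the class III phosphoinositide kinase complex, were lower without passing.

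The lipid sensing and export list, 14 genes, had none past the test on FPKM (limma) and a median of -0.18. On FPKM 2 were at an unadjusted p under 0.05, where 955 of all 10393 genes were (1173 on scaled fragments). Abcg1, which exports cholesterol to lipoproteins, measured 27.8, 26.6 and 32.4 FPKM against 20.1, 19.7 and 21.9 and fell on scaled fragments (log2 difference -0.49, adjusted p = 0.0259); leaving out control replicate 1 gave 0.0742, control replicate 3 gave 0.175, and the first and second stimulated replicates gave 0.126 and 0.136. Ppard measured 15.1 to 16.2 against 9.59 to 14.4 FPKM and Apoe 20276 to 21012 against 15582 to 18398 FPKM, and neither passed on either scale. Apoe did pass without stimulated replicate 3 (adjusted p = 0.00789 on FPKM and 6.1e-08 on scaled fragments, limma), without stimulated replicate 1 on scaled fragments (0.00239) and on FPKM scaled to equal totals (0.0474). Of the coagulation factors and carboxylation enzymes related to the 2 ligands, 7 were tested and none passed on either scale (1 at an unadjusted p under 0.05 on FPKM, 2 on scaled fragments), F10 being the 1 without overlap (10.2 to 16.9 against 18.0 to 24.0 FPKM). Of the transglutaminases other than Tgm2, 2 were tested and none passed on either scale, with 0 at an unadjusted p under 0.05.

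For each member whose groups did not overlap, the genes whose profile over the 6 libraries was nearest were found by the root mean square difference of centred log2 levels. Nearest to Gas6 were Abcg1 at 0.05 and Chd8 at 0.08, and 20 genes lay within 0.1. Sparc and Mmp12 were nearest to Mfge8, each at 0.04, among 68 genes within 0.1: Sparc, a matrix protein of stromal cells and macrophages, measured 66.7, 70.8 and 79.2 FPKM against 55.1, 54.7 and 57.6. Pnpla8 and Usp4 were nearest to Tgm2, each at 0.05, with 22 genes within 0.1. For Lrp1, Nsd1 and Laptm5 were nearest at 0.03 each, with 302 genes within 0.1, as the flat profile of Lrp1 is shared by many genes. This measure was taken on FPKM, describes 6 libraries of 2 groups and carries no test. In FPM, Usp4 (107 to 115 in the controls against 89.2 to 120) and Chd8 (87.0 to 121 against 89.6 to 97.7) overlapped between the groups. The other nearest genes named did not overlap in FPM.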

How the data were processed

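RNA-seq libraries of 3 control and 3 stimulated BMM cultures (TruSeq stranded mRNA, 100 bp paired reads) were analysed from one transcript table per library. The authors aligned the reads to mm10 with TopHat and Bowtie and deposited FPKM and coverage per transcript from Cufflinks (versions not given in the sources used here); coverage is a signal, the mean depth over a transcript, deposited by the authors beside FPKM. TMM normalisation and Cuffdiff are named in the methods; whether these files carry such a scaling is not given in the sources used here. FPKM was summed per symbol over reference transcripts and those assembled transcripts whose Cufflinks gene held 1 symbol. Groups were compared with limma (version 3.58.1, R 4.3.3; trended, robust) on log2(FPKM + 0.1) for genes whose mean over the libraries reached 1 FPKM, with Benjamini-Hochberg adjustment over all 10393 genes; such differences understate changes of low genes. Fragments were recovered as coverage times the transcript length, shortened by 210 to 220 bp, over the read length; of low values 95.6% to 96.2% came out whole within 0.1. Libraries held 699131 to 776270 fragments by this measure. The paper states far more reads per sample than that, and the reason for the gap was not tested. Counting limits given here hold for the recovered fragments, not for the stated sequencing depth. Intervals from fragments cover counting error only. By the mean over genes, same-group libraries differed by more than counting noise (chi-square 1.50 to 1.68 per gene, 2.13 to 2.74 between groups). None was therefore counted as a duplicate. The medians were 0.504 to 0.572 within groups and 0.626 to 0.696 between them. Such a chi-square has a median below its mean under counting noise alone, so these medians do not show less spread than counting noise. Technical replicates are not excluded by these values.

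Exons are from GENCODE M21 (GRCm38, the same coordinates as mm10) and promoters from RefSeq, where 7 of the 8 members were matched. The members and the gene lists were chosen with earlier results of these data known. Text names the 8 members, each list gene past the threshold, up to 3 more per list with the largest difference among those whose groups did not overlap, and, added after their values were seen, list genes past it on scaled fragments. The fits were run on simulated fragments with counting noise, a small added spread and known changes. That simulation held no noise from transcript assembly, so it does not vouch for the fits on FPKM. Alternatives covered the pseudocount, the filter, scaling, transcripts summed, limma settings, a replicate block and leaving out each library.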

Additional observations from a re-analysis of the deposited data

How the results depend on the processing

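Testing scaled fragments raised the genes past the threshold from 38 to 221 (143 higher, 78 lower), the pathway genes from 6 to 10 and the members from 0 to 3; the cause was not tested. No member passed on FPKM under any alternative tried. For all genes and pathway genes the counts were 19 and 2 with reference transcripts alone, 10 and 0 with transcript lines apart, and 18 and 1 without trend or robust variance. Replicate numbers did not pair the libraries (correlations of same-numbered deviations -0.02, -0.0024 and 0.0099), and a replicate block gave 18 genes, 3 pathway genes and 0 members. Alternatives chosen after seeing the data, on scaled fragments, gave 196 genes, 12 pathway genes and 3 members with a replicate block, 225, 10 and 3 with size factors, and 12, 0 and 0 with reference transcripts alone. With 1 library left out, 8 to 30 genes, 0 to 6 pathway genes and 0 members passed on FPKM, and 134 to 197, 8 to 12 and 2 to 4 on scaled fragments. The 8 came without stimulated replicate 1, 17 without stimulated replicate 2 and 22 without control replicate 1; on scaled fragments stimulated replicates 1 and 2 gave 134 and 137. Lrp1 was the fourth member, without stimulated replicate 3.

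Signs turned for some genes, of which Mmp14 alone had a call on FPKM. Mertk stood at -0.079 on scaled fragments with or without a replicate block and at -0.085 with size factors. With a library left out it ranged from -0.14 to 0.28 over both scales, and Axl ranged from -0.057 to 0.23, below 0 without control replicate 3 on either scale and without stimulated replicate 3 on scaled fragments. With reference transcripts alone, FPKM and then scaled fragments gave -3.37 and -3.99 for Sirpa, -1.72 and -2.33 for Src, 0.46 and 0.46 for Becn1, -2.80 and -3.22 for Mmp14, and -0.28 and -0.29 for F10, whose signal was partly on assembled transcripts. Fragment counts of 15 to 77 per library limit Pros1 and Axl.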
